A study of Mus musculus with 6 samples.

Results

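The collagen chain genes are the genes that encode the alpha chains of the collagens, the main structural proteins of the extracellular matrix. They were taken as every gene whose symbol in the array's annotation has the form Col, a type number, the letter a and a chain number, with the brightest probe set (the group of probes that reads 1 transcript) standing for a gene. The rule gave 44 of 19938 genes measured, and all 44 had a probe set that carried no other gene's symbol. Col6a5 and Col6a6 had 2 probe sets each. Transcript levels were measured in V6.5 mouse embryonic stem cells on 6 one-colour Mouse Gene 1.0 ST arrays. Each of 3 lines carried a doxycycline-inducible short hairpin RNA: hairpin 1 or hairpin 2 against Pcgf6, which encodes a RING finger subunit of the non-canonical polycomb complex PRC1.6, or a scrambled hairpin. Each line was measured on 1 array with doxycycline (dox, 1 µg/ml) and 1 array without it. Per the labels' protocols, the stem cells grew with serum and leukemia inhibitory factor on mitomycin-inactivated DR4 mouse embryo fibroblasts as feeder cells. The labels do not say whether feeder cells were removed before RNA extraction, nor whether a line was 1 clone or a pool.

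Collagen chains assemble as trimers around a shared helix and are secreted, trimmed and crosslinked outside the cell. Fibrillar collagens such as types I, III and V form the tensile fibrils of connective tissue, type IV forms the sheet of basement membranes, type VI forms beaded filaments around cells, and types VIII and X form short-chain networks. Fibroblasts are the classic makers of fibrillar, type VI and type XII collagen, whereas early embryonic cells are known mainly for the basement membrane chains.

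The targeted gene was examined first. Pcgf6 read 11.56 without and 9.39 with dox in the hairpin 1 line, 11.70 and 9.27 in the hairpin 2 line, and 11.80 and 11.82 in the scrambled line, in log2 expression. It fell in the Pcgf6 hairpin lines, with a change of -2.30 on the log2 scale (SE 0.10, limma adjusted p = 0.000846), and differed by 0.02 in the scrambled line. The 10 stem cell markers listed for the cell type check (Pou5f1, Nanog, Sox2 and others) averaged between 11.81 and 12.06 on all 6 arrays, and each of the 10 lay above the median of all genes. Their mean was lowest on the induced hairpin 2 array and highest on the uninduced scrambled array. Arrays correlated at 0.990 to 0.997 across genes.

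The 44 genes were of moderate brightness on the whole. The mean over the 6 arrays lay between 6.09 (Col4a6) and 10.67 (Col12a1), and 21 of 44 lay above 7.55, the median of all genes, where 50% lie by construction. No collagen gene lay below 6.01, the lower quartile of all genes. The values carry no detection call, so a dim gene cannot be told from an unexpressed one. Brightness is given as read on the array and does not rank genes by transcript amount, because each probe set has its own response.

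Most collagen genes gave nearly the same value on every array, and a small set did not. The difference between the highest and the lowest array, the range, had a median of 0.26 on the log2 scale over the 44 genes and 0.29 over all genes. It reached 2-fold in 9 of 44 collagen genes, against 2.37% of all genes. These 9 were the type I chains Col1a1 and Col1a2, the type V chain Col5a2, the type VI chains Col6a1, Col6a2 and Col6a3, the type XII chain Col12a1, and the network chains Col8a1 and Col10a1. Col8a1, with a range of 1.07, was the gene just inside that limit, and the type III chain Col3a1, with 0.77, was the gene just outside. Among the other 35 the median range was 0.22.

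**Figure D1:**
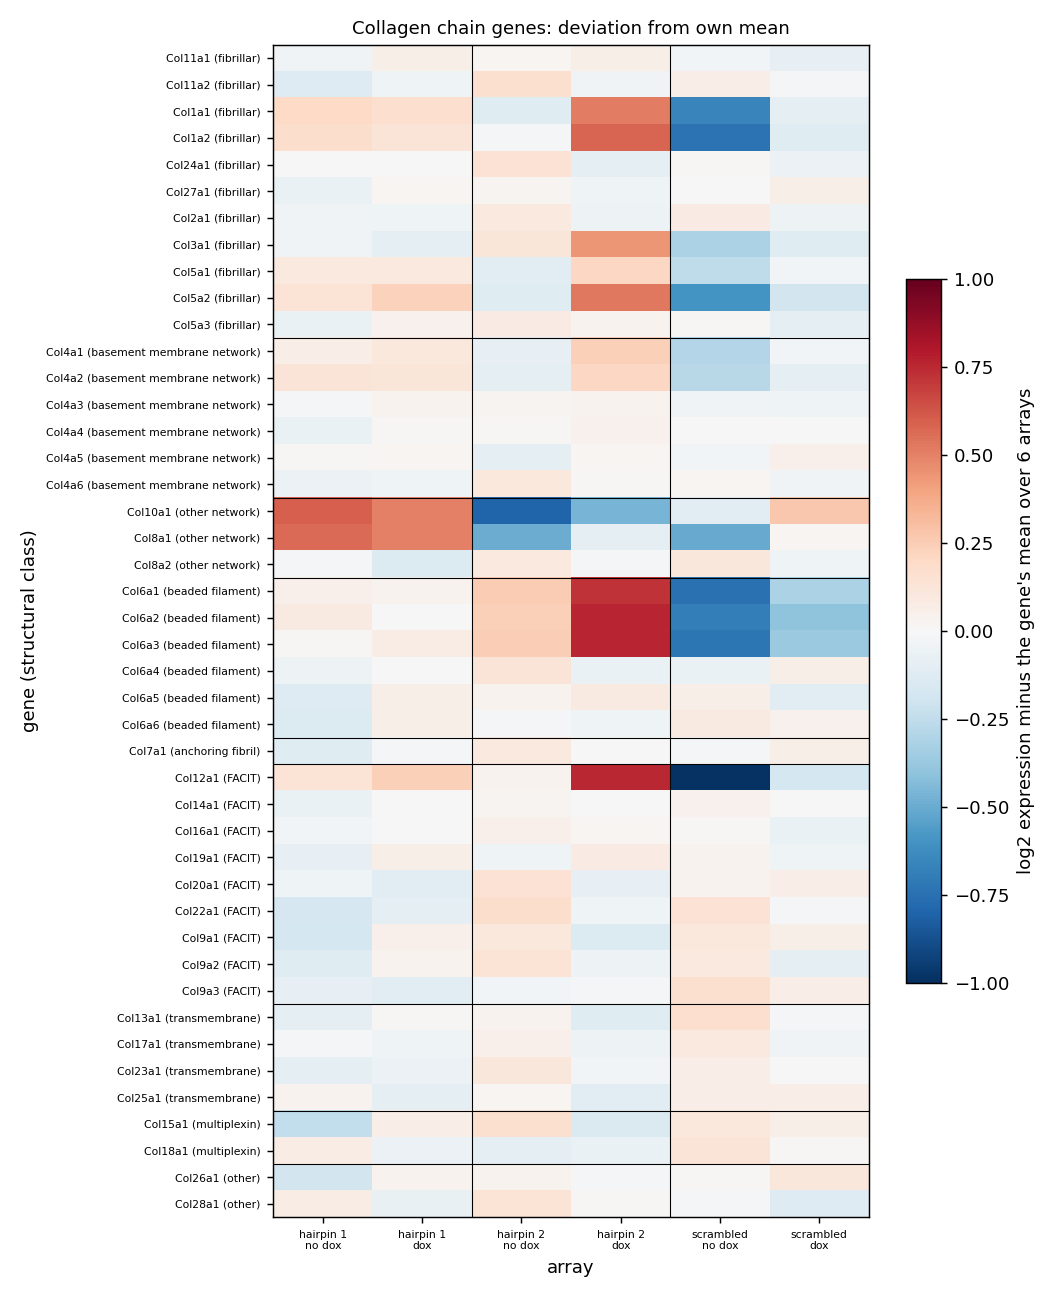
Each row is 1 collagen chain gene, grouped by structural class, and each column is 1 array; colour is the log2 expression on that array minus the gene's mean over the 6 arrays. Col1a1, Col1a2, Col5a2, Col6a1, Col6a2, Col6a3 and Col12a1 are lowest on the uninduced scrambled array and highest on the induced hairpin 2 array, Col8a1 and Col10a1 are highest in the hairpin 1 line, and most other rows are pale.

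Among the fibrillar chains, Col1a1, Col1a2, Col3a1, Col5a1 and Col5a2 shared their lowest and their highest array. Col1a1 (probe set 10380419), whose product is the major chain of type I collagen, read 10.34 without and 10.31 with dox in the hairpin 1 line, 10.02 and 10.65 in the hairpin 2 line, and 9.48 and 10.05 in the scrambled line. Its partner in the type I trimer, Col1a2, read 9.67 and 9.62 in the hairpin 1 line, 9.47 and 10.07 in the hairpin 2 line, and 8.75 and 9.37 in the scrambled line. Both were lowest on the uninduced scrambled array and highest on the induced hairpin 2 array, and both hairpin 1 values lay between. The ranges of Col1a1 and Col1a2 were 1.17 and 1.32, while the difference between the pair varied by only 0.18 over the 6 arrays.

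Col3a1, which forms the type III collagen of extensible tissues, read 8.29 without and 8.24 with dox in the hairpin 1 line, 8.45 and 8.77 in the hairpin 2 line, and 8.01 and 8.21 in the scrambled line. Col5a2, a chain of the type V collagen that helps start type I fibrils, read 7.97 and 8.06, then 7.71 and 8.36, then 7.23 and 7.65, in the same order. Col5a1, its partner in type V collagen, read 8.45 and 8.45, then 8.24 and 8.56, then 8.10 and 8.33. All of these were again lowest on the uninduced scrambled and highest on the induced hairpin 2 array, but by different amounts: the Col5a1 range was 0.46 and the Col5a2 range 1.13, and their difference varied by 0.67. Col3a1 and Col5a2, neighbours on chromosome 1 in the RefSeq annotation, differed by amounts that varied over 0.60.

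The remaining fibrillar chains did not have that pair of extremes. Col2a1, the cartilage fibril chain, read 7.75 without and 7.74 with dox in the hairpin 1 line, 7.88 and 7.73 in the hairpin 2 line, and 7.86 and 7.73 in the scrambled line. Col5a3 read 7.16 and 7.27, then 7.31 and 7.26, then 7.24 and 7.13, and Col24a1 read 7.15 and 7.15, then 7.30 and 7.06, then 7.16 and 7.09. Col11a1, Col11a2 and Col27a1, chains found with type II collagen in cartilage, had ranges of 0.14, 0.28 and 0.13. None of these 6 genes reached a range of 0.3, and none was lowest on the uninduced scrambled array.

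The chains of the classic type VI collagen varied together. Col6a1 read 9.26 without and 9.24 with dox in the hairpin 1 line, 9.46 and 9.93 in the hairpin 2 line, and 8.46 and 8.89 in the scrambled line. Col6a2 read 8.91 and 8.82, then 9.06 and 9.58, then 8.13 and 8.42, and Col6a3 read 8.88 and 8.94, then 9.11 and 9.63, then 8.14 and 8.49. In each of these chains, which assemble into 1 heterotrimer, the lines separated completely: both hairpin 2 arrays lay above both hairpin 1 arrays, and these above both scrambled arrays. Their ranges were 1.46, 1.45 and 1.49, and the difference between any pair of them varied by 0.11 to 0.14. The other type VI chains, Col6a4, Col6a5 and Col6a6, lie side by side in the genome and had ranges of 0.20, 0.22 and 0.22. Col6a5 read 6.97 without and 7.16 with dox in the hairpin 1 line, 7.14 and 7.19 in the hairpin 2 line, and 7.16 and 6.99 in the scrambled line. For Col6a6 the values were 7.35 and 7.54, then 7.47 and 7.44, then 7.57 and 7.53. The second, dimmer probe sets of Col6a5 and Col6a6 read 6.25 to 6.72 and 6.00 to 6.32.

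Col12a1, a fibril-associated collagen with interrupted helices (FACIT) that coats type I fibrils, varied most of the 44. It read 10.81 without and 10.91 with dox in the hairpin 1 line, 10.71 and 11.43 in the hairpin 2 line, and 9.69 and 10.50 in the scrambled line, a range of 1.74 (3.33-fold). It too was lowest on the uninduced scrambled array, and all 4 hairpin arrays lay above both scrambled arrays. The other 8 FACIT chains had ranges from 0.11 (Col14a1) to 0.34 (Col22a1). Col16a1 read 7.38 without and 7.41 with dox in the hairpin 1 line, 7.46 and 7.43 in the hairpin 2 line, and 7.42 and 7.34 in the scrambled line. Col9a1, Col9a2 and Col9a3 encode the type IX collagen of cartilage. Col9a1 read 6.38 without and 6.61 with dox in the hairpin 1 line, 6.66 and 6.42 in the hairpin 2 line, and 6.66 and 6.62 in the scrambled line. Col9a2 read 7.72 and 7.88, then 7.98 and 7.79, then 7.94 and 7.75. Col9a3 read 7.98 and 7.95, then 8.03 and 8.05, then 8.22 and 8.13, and was the FACIT gene whose 4 hairpin arrays all lay below both scrambled arrays. Among the minor FACIT chains, Col19a1 read 6.31 and 6.45, then 6.35 and 6.48, then 6.43 and 6.35. Col20a1 read 6.92 and 6.85, then 7.11 and 6.88, then 7.00 and 7.03. Col22a1, a chain of tissue junctions, read 6.95 and 7.03, then 7.29 and 7.07, then 7.26 and 7.10.

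In the basement membrane class only the ubiquitous chains Col4a1 and Col4a2 varied beyond 0.2. Col4a1 read 8.17 without and 8.21 with dox in the hairpin 1 line, 8.02 and 8.34 in the hairpin 2 line, and 7.81 and 8.08 in the scrambled line. Col4a2, its partner and head-to-head neighbour, read 8.45 and 8.44, then 8.23 and 8.53, then 8.04 and 8.23. Their ranges were 0.53 and 0.49, with the same lowest and highest arrays as the type VI chains, and the difference between the pair varied by 0.13. Col4a3, Col4a4, Col4a5 and Col4a6, the chains of specialised basement membranes such as that of the kidney filter, had ranges of 0.08, 0.11, 0.13 and 0.16. Col4a5 read 6.92 and 6.93, then 6.82 and 6.93, then 6.88 and 6.96.

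Thus 11 of 44 collagen genes were both lowest on the uninduced scrambled array and highest on the induced hairpin 2 array, against 7.09% of all genes. They were Col1a1, Col1a2, Col3a1, Col5a1, Col5a2, Col4a1, Col4a2, Col6a1, Col6a2, Col6a3 and Col12a1. All 11 were also among the 21 collagen genes brighter than the median gene.

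**Figure D2:**
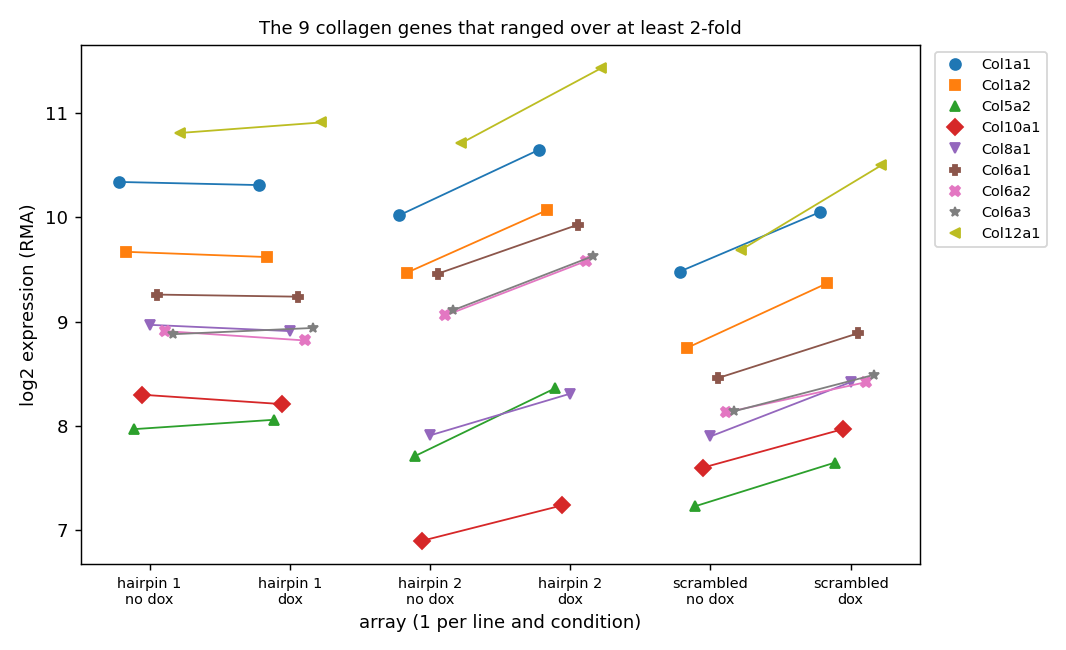
Log2 expression (vertical axis) of the 9 collagen genes with a range of at least 2-fold on each of the 6 arrays (horizontal axis), 1 point per array, with lines joining the arrays without and with dox of the same line. Slopes are nearly flat in the hairpin 1 line and upward in the hairpin 2 and scrambled lines, and Col10a1 and Col8a1 stand highest in the hairpin 1 line.

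Most markers of the feeder cells had the same lowest and highest arrays. The list was chosen with earlier results of these data known. It held 18 fibroblast genes without collagens (Thy1, Pdgfra, Pdgfrb, Twist2, Prrx1, Mmp2 and others) and shared no gene with the other lists. Of these, 17 of 18 were lowest on the uninduced scrambled array, against 18.8% of all genes. In 12 of them the induced hairpin 2 array was also highest, against 7.09% of all genes. The mean log2 level of the 18 was 10.35 without and 10.39 with dox in the hairpin 1 line, 10.15 and 10.57 in the hairpin 2 line, and 9.44 and 10.07 in the scrambled line. The 9 variable collagens, picked for their range over these arrays, averaged 9.23 and 9.22, then 8.93 and 9.47, then 8.38 and 8.86. The means of the 18 markers over the arrays ran from 5.16 (Fap) to 13.24 (Vim), and Fap was the only one below the median of all genes, and also below the lower quartile of 6.01. The part of feeder RNA in the collagen values was not tested, and in bulk RNA fewer cells of a type and less RNA per cell cannot be told apart. The endoderm list averaged 8.09 on the uninduced scrambled array and 8.37 to 8.52 on the others, the endothelial list 6.80 to 6.99, and the cartilage list 6.73 to 6.90.

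Col8a1 and Col10a1 were highest in the hairpin 1 line. Col10a1 (probe set 10362495), the network collagen known from hypertrophic cartilage, read 8.30 without and 8.21 with dox in the hairpin 1 line, 6.90 and 7.24 in the hairpin 2 line, and 7.60 and 7.97 in the scrambled line. Its lines did not overlap, with hairpin 1 highest, scrambled between and hairpin 2 lowest, which is the reverse of the order of hairpin lines in type VI collagen. Col8a1 (probe set 10440091), a chain of the type VIII network of vessel walls and of the corneal Descemet membrane, read 8.97 and 8.91, then 7.91 and 8.31, then 7.90 and 8.42. Both hairpin 1 arrays were highest, while the hairpin 2 and scrambled values overlapped. Col8a2, the partner chain of Col8a1, read 6.54 and 6.42, then 6.65 and 6.54, then 6.67 and 6.51. It did not follow Col8a1: its range was 0.24, and the difference between them varied by 1.26. Nt5dc1, the gene that overlaps Col10a1 in the RefSeq annotation, read 8.71 and 8.93, then 8.85 and 8.93, then 8.82 and 8.72, so its values did not have the Col10a1 order.

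The promoters of these network genes are shown because both genes were highest in the hairpin 1 line, although the difference between them varied by 0.77 over the arrays. Each is the 100 bases before the RefSeq start of the gene (GRCm38.p6), written 5′ to 3′ on the strand of the gene: Col10a1 at chr10:34389881-34389980 on the plus strand and Col8a1 at chr16:57754738-57754837 on the minus strand. Capitals mark matches to the motifs searched on both strands, the TATA box (TATAAA), the CCAAT box, the GC box (GGGCGG) and the E-box (CACGTG).
Col10a1: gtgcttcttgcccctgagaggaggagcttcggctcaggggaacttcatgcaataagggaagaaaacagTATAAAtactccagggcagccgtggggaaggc
Col8a1: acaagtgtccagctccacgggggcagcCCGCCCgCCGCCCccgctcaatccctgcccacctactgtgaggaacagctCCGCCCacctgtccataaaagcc
The Col10a1 window held TATAAA with its first base at -32 from the start, a motif found in 5.56% of all 32851 promoter windows. The Col8a1 window held GGGCGG in the reverse direction at -73, -66 and -23, a motif found in 24.7% of windows. A match is a run of letters and not a shown binding site.

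Windows were at hand for 35 of 44 collagen genes. TATAAA was found in 2, CCAAT in 4, GGGCGG in 18 and CACGTG in 0 of the 35, beside 6.57%, 21.6%, 27.3% and 3.7% of all 27025 genes with a window. Some genes have several windows, and a gene counts when any of them holds the motif. Of the 11 genes lowest on the uninduced scrambled and highest on the induced hairpin 2 array, 8 had a window. Of these, Col5a1, Col4a2 and Col6a2 held a match and 5 held none (Col1a2, Col3a1, Col4a1, Col6a1 and Col6a3). Col5a1 held GGGCGG at -73, and Col4a2 held GGGCGG at -48 and CCAAT at -32. To show both kinds, windows are given for Col1a2 (chr6:4505518-4505617, plus strand), Col3a1 (chr1:45311438-45311537, plus strand), Col6a1 (chr10:76726045-76726144, minus strand), Col6a3 (chr1:90843972-90844071, minus strand) and Col6a2 (chr10:76623405-76623504, minus strand).
Col1a2: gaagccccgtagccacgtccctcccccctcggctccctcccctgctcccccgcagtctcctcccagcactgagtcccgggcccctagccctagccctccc
Col3a1: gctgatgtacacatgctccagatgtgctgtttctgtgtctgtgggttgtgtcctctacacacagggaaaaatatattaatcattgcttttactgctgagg
Col6a1: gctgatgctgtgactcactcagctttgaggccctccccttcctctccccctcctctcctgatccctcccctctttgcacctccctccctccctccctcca
Col6a3: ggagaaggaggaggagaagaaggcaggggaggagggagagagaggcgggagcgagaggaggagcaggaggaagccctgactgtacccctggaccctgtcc
Col6a2: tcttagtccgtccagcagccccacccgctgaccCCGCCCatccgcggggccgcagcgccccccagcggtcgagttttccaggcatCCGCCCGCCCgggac
This Col6a2 window, 1 of 2 for the gene, held GGGCGG in the reverse direction at -67, -15 and -11, the last pair overlapping, and its second window held no match. For the others, the absence of a match says only that these letters are not in this window.

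None of the genes of the remaining classes reached a 2-fold range. The ranges were 0.40 for Col15a1, 0.30 for Col26a1, 0.26 for Col28a1 and 0.22 for Col18a1. Col18a1, the multiplexin of basement membranes from which endostatin is cut, read 9.16 without and 9.03 with dox in the hairpin 1 line, 8.99 and 9.02 in the hairpin 2 line, and 9.21 and 9.10 in the scrambled line. Col15a1, the related multiplexin, read 6.71 and 7.02, then 7.11 and 6.81, then 7.06 and 7.01, so dox went with a higher value under hairpin 1 and a lower one under hairpin 2. The transmembrane collagens Col13a1, Col17a1, Col23a1 and Col25a1 had ranges of 0.29, 0.15, 0.20 and 0.17. Col13a1, found at cell junctions, read 7.25 and 7.35, then 7.37 and 7.22, then 7.51 and 7.33. Col25a1, a transmembrane chain of neurons, read 6.98 and 6.85, then 6.96 and 6.84, then 7.01 and 7.01, and all 4 of its hairpin arrays lay below both scrambled arrays. Col7a1, the anchoring fibril of skin, ranged over 0.22. Col26a1 read 7.62 and 7.84, then 7.84 and 7.79, then 7.82 and 7.92, and Col28a1 read 6.79 and 6.64, then 6.85 and 6.73, then 6.70 and 6.59.

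The first comparison asked what induction of a Pcgf6 hairpin did to collagen transcripts. No collagen gene passed the test, against 0.201% of all genes (limma, Benjamini-Hochberg adjusted p below 0.05). The largest differences were in Col12a1, at 11.17 ± 0.36 with and 10.76 ± 0.07 without dox (SD, n = 2 lines each), and in Col5a2, at 8.21 ± 0.21 and 7.84 ± 0.18. They were 0.41 (SE 0.17, limma adjusted p = 0.564) for Col12a1 and 0.37 (SE 0.14, limma adjusted p = 0.538) for Col5a2. These were the 2 of 44 with an unadjusted p below 0.05, a share below the 8.75% of all genes. Col12a1 was at 0.67 without the induced hairpin 1 array and at 0.16 without the induced hairpin 2 array. Without the uninduced hairpin 1 or hairpin 2 array it was at 0.46 and 0.36. Each of these fits sets 1 hairpin line against both, so differences between the hairpin lines enter the value. With all arrays, the lowest gene was Col20a1 at -0.15. The median of the 44 was 0.02, beside -0.01 over all genes.

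The lines did not give the same dox difference, and 1 array stands against 1 in each. In the hairpin 1 line 0 of 44 collagen genes were at least 1.5-fold higher with dox, against 0.627% of all genes. The largest values there were 0.31 for Col15a1 and 0.24 for Col9a1, and the 9 variable genes had a median of -0.03. In the hairpin 2 line 4 of 44 passed 1.5-fold higher, Col12a1 (0.72), Col5a2 (0.65), Col1a1 (0.63) and Col1a2 (0.60), against 2.17% of all genes, and the 9 had a median of 0.52. In the scrambled line 2 of 44 did, Col12a1 (0.81) and Col1a2 (0.62), against 1.48%, with a median of 0.43 over the 9. None was 1.5-fold lower in any line, against 0.241%, 0.446% and 0.211% of all genes in the hairpin 1, hairpin 2 and scrambled lines. The 18 feeder markers had medians of 0.05, 0.41 and 0.67 in these lines, and their part was not tested. After quantile normalization of the arrays 2 genes passed in the hairpin 2 line and 1 in the scrambled line. The share of all genes under that normalization is not given, so these counts have no baseline.

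**Figure D3:**
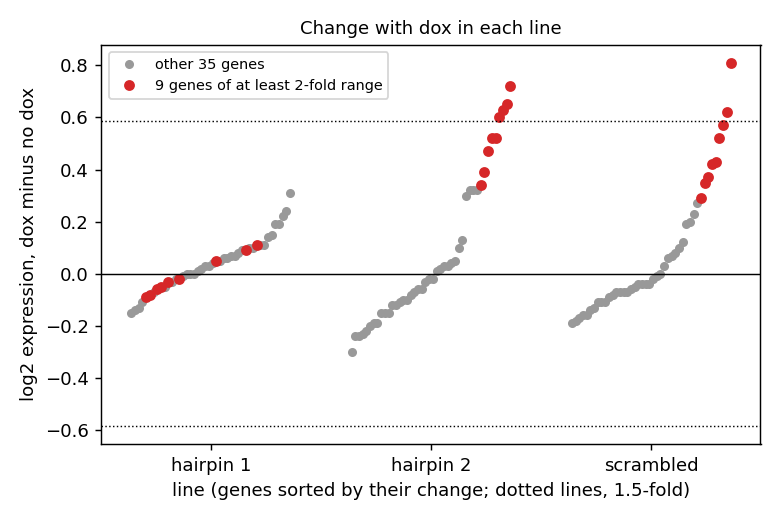
Log2 expression with dox minus without dox (vertical axis) for the 44 collagen genes in each of the 3 lines, sorted within a line, each value 1 array against 1; red points are the 9 genes with a range of at least 2-fold and dotted lines mark 1.5-fold. The red points lie around 0 in the hairpin 1 line and form the upper end in the hairpin 2 and scrambled lines. These 9 genes were picked for their range over the same arrays.

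The second comparison asked whether the dox difference of the Pcgf6 hairpin lines departed from that of the scrambled line. No collagen gene passed, against 0.0702% of all genes, and the smallest limma adjusted p was 0.999. At an unadjusted p below 0.05 there were 0 of 44, against 4.55% of all genes. Col12a1 was at one end with -0.40 (SE 0.29), followed by Col1a2 at -0.35 (SE 0.28) and Col8a1 at -0.35 (SE 0.60). Col6a5 was at the other end with 0.29 (SE 0.17). The SE values borrow the spread of the hairpin groups for the single scrambled arrays. With line as a block (replicate block) the count was 0, against 5.48% of all genes. Col12a1 was at -0.65 without the induced hairpin 2 array and at -0.14 without the induced hairpin 1 array. Each of these fits keeps 1 hairpin array with dox, so differences between the hairpin lines enter the value.

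Over all 3 lines, 3 arrays with dox were set against 3 without. No collagen gene passed, and neither did any other gene (0% of all genes, limma adjusted p below 0.05). At an unadjusted p below 0.05 there were 0 of 44, against 7.16%. Col12a1 differed by 0.55 (SE 0.33), from 10.40 without to 10.95 with dox, and Col1a1 by 0.39 (SE 0.23), from 9.95 to 10.34. The smallest limma adjusted p was 0.676. Fitting the line as a block, which pairs the arrays of a line, brought 8 of 44 below an unadjusted p of 0.05, all higher. Of all genes 11.6% lay below that level in either direction. The smallest limma adjusted p of a collagen gene was then 0.345. In that fit Col12a1 was at 0.55 (SE 0.14) and Col5a2 at 0.39 (SE 0.11). Without the uninduced hairpin 1 array and without the block, 5 were higher and 1 lower at that level, where 13.3% of all genes lay. Without the induced scrambled array 1 was (10.7%), and without any other array 0 were (3.91% to 5.29%). Col12a1 was at 0.19 and Col1a1 at 0.15 without the uninduced scrambled array, and at 0.30 and 0.23 without the induced hairpin 2 array. Each left-out array leaves the other array of its line unpaired, so differences between lines enter these values and counts. Within lines, the Col12a1 dox difference was 0.11 for hairpin 1, 0.72 for hairpin 2 and 0.81 for scrambled. The dox array was the higher in every line for 5 genes, Col5a2, Col4a1, Col4a5, Col6a3 and Col12a1, against 15.2% of all genes, and the lower in every line for 6, Col2a1, Col8a2, Col17a1, Col24a1, Col25a1 and Col28a1, against 18.5%. Col4a5 was the 1 gene with all 3 dox arrays above all 3 others (4.08% of all genes), and Col2a1, Col8a2, Col17a1 and Col24a1 were the 4 with all 3 below (8.07%).

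Larger differences stood between the lines. The SE values here rest on the arrays with and without dox of a line, and do not measure spread between lines. The mean of both Pcgf6 hairpin lines was above that of the scrambled line in the main type VI chains, by 0.82 for Col6a2 (SE 0.15, 1.76-fold, limma adjusted p = 0.308), 0.83 for Col6a3 (SE 0.16, limma adjusted p = 0.31) and 0.79 for Col6a1 (SE 0.16, limma adjusted p = 0.335). The line means of Col6a2 were 8.87 for hairpin 1, 9.32 for hairpin 2 and 8.28 for scrambled. Col12a1 was higher by 0.87 (SE 0.26), Col1a2 by 0.64 (SE 0.21), Col5a2 by 0.59 (SE 0.19), Col1a1 by 0.56 (SE 0.21), Col3a1 by 0.33 (SE 0.11) and Col4a2 by 0.28 (SE 0.11). None of these passed adjustment, against 0.00502% (1 gene) of all genes. They are the 9 of 44 that were higher at an unadjusted p below 0.05, against 5.26% of all genes. Col9a3, at -0.17 (SE 0.07), was the 1 gene lower at that level, against 3.37%. Tcfl5, which overlaps Col9a3 in the RefSeq annotation, was at -0.10. All 4 hairpin arrays lay above both scrambled arrays in 8 of 44 (Col1a2, Col3a1, Col5a2, Col4a3, Col6a1, Col6a2, Col6a3 and Col12a1), against 9.69%, and below in Col9a3 and Col25a1, against 8.38%.

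Col12a1, Col1a1, Col1a2, Col5a2, Col6a1, Col6a2 and Col6a3 were lowest on the uninduced scrambled array, so leaving it out must lower their line differences. The scrambled line is then 1 array with dox, set against hairpin arrays with and without dox, so dox and line are mixed. Col12a1 was then at 0.46 in place of 0.87, Col1a1 at 0.28, Col1a2 at 0.33 and Col5a2 at 0.38. Col6a1, Col6a2 and Col6a3 were at 0.58, 0.67 and 0.65. With all arrays, 8.63% of all genes lay at an unadjusted p below 0.05 in either direction. Col6a3 came nearest to the threshold when dox was a further term of the fit, at 0.83 (SE 0.11, limma adjusted p = 0.062), with Col6a1 at 0.0659 and Col6a2 at 0.0727. The 18 feeder markers were all above 0 in the same comparison, with a median of 0.55 (0.00 over all genes), 12 of them at an unadjusted p below 0.05, and their part was not tested. The 10 stem cell markers had a median of -0.12 there, with 1 above 0 and 2 lower at that level (3.37% of all genes).

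The hairpin 1 line was also set against the hairpin 2 line, a comparison added after the levels of Col8a1 and Col10a1 had been seen, so their values are a description. Col10a1 was higher in the hairpin 1 line by 1.19 (SE 0.16, 2.28-fold), with line means of 8.26 and 7.07, the value ranked 2 of 19938 genes. Col8a1 was higher by 0.83 (SE 0.19, 1.78-fold), with line means of 8.94 and 8.11, ranked 8. The type VI chains lay on the other side, at -0.45 (SE 0.19) for Col6a1, -0.46 (SE 0.18) for Col6a2 and -0.45 (SE 0.19) for Col6a3, and Col3a1 was at -0.35 (SE 0.13). No gene of the array passed adjustment in this comparison (0% of all genes), and 2.41% and 2.37% of all genes were higher and lower at an unadjusted p below 0.05, where 2 and 3 collagen genes stood. The 18 feeder markers had a median of 0.02 here, with 9 of 18 above 0 and Pdgfra at -0.88 (SE 0.31). The endothelial list had a median of 0.07, with 4 of 6 genes above 0, among them Emcn at 0.71 (SE 0.10). The cartilage list had a median of -0.11, with 2 of 6 genes above 0. Of the cartilage markers, Sox9 was at -0.16 (SE 0.21), Acan at 0.06 (SE 0.08) and Matn3 at -0.10 (SE 0.18).

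**Figure D4:**
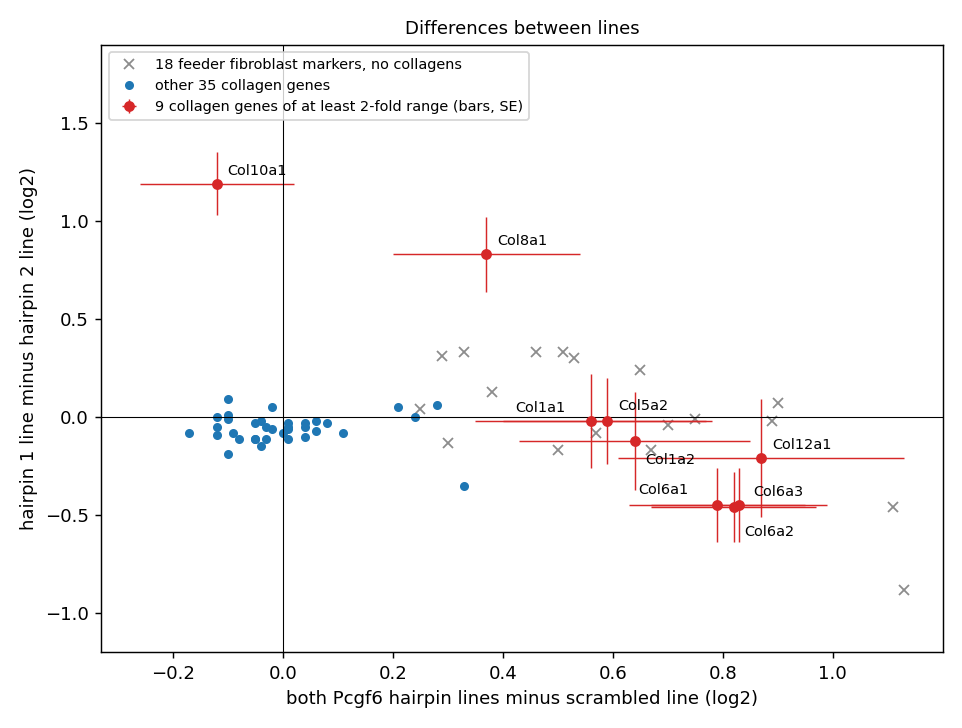
For each gene the horizontal axis is the difference of both Pcgf6 hairpin lines from the scrambled line and the vertical axis that of the hairpin 1 from the hairpin 2 line, both in log2; red points with SE bars are the 9 collagen genes with a range of at least 2-fold, blue points the other 35, and crosses the 18 feeder markers. Col1a1, Col1a2, Col5a2, Col6a1, Col6a2, Col6a3 and Col12a1 lie to the right with the crosses, Col10a1 and Col8a1 lie at the top, and most blue points lie near the centre.

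Genes that make, process or bind collagen, or accompany it in the matrix, were read from 5 lists. None of their genes passed adjustment in any of the 5 comparisons. In collagen synthesis and secretion, 20 of 23 genes were above 0 in the lines' comparison (both hairpin lines minus scrambled), 6 of them at an unadjusted p below 0.05, with a median of 0.23. Its prolyl hydroxylase subunit P4ha3 was at 0.80 (SE 0.27) and the foldase Fkbp14 at 0.54 (SE 0.12), while P4hb and Ppib, also general chaperones of the secretory pathway, were at 0.12 (SE 0.08) and 0.08 (SE 0.08). With dox in the Pcgf6 hairpin lines, the collagen chaperone Serpinh1 was at 0.57 (SE 0.22) and the prolyl hydroxylases P3h2 and P4ha2 at 0.55 (SE 0.18) and 0.52 (SE 0.14, limma adjusted p = 0.403). The dox difference of Serpinh1 was 0.05 in the hairpin 1, 1.08 in the hairpin 2 and 0.36 in the scrambled line. It was 0.28, 0.83 and 0.35 for P3h2 and 0.25, 0.79 and 0.20 for P4ha2 in these lines, so the scrambled line was also above 0 for all of these genes. In processing and crosslinking, 9 of 12 were above 0 between lines and 5 at an unadjusted p below 0.05, led by the crosslinking oxidases Loxl3 at 0.73 (SE 0.15) and Loxl1 at 0.72 (SE 0.24). Of all genes 50.2% were above 0 in the lines' comparison and 5.26% were higher at an unadjusted p below 0.05. All 18 feeder markers were above 0 there, and their part in these lists was not tested.

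The fibril-associated proteoglycans and matrix partners lay on 1 side in the lines' comparison, some of them near 0. All 14 were above 0 between the hairpin lines and scrambled, 9 of them at an unadjusted p below 0.05, with a median of 0.52. Near 0 were Tnxb at 0.05 (SE 0.09), Kera at 0.07 (SE 0.07) and Fn1 at 0.10 (SE 0.12). Beside them, 18 of 18 feeder markers were above 0, 12 at an unadjusted p below 0.05, with a median of 0.55. The part of feeder RNA was not tested. Lum, the fibril-spacing proteoglycan lumican, read 7.09 without and 7.00 with dox in the hairpin 1 line, 7.84 and 8.34 in the hairpin 2 line, and 6.01 and 6.40 in the scrambled line, a difference of 1.36 (SE 0.16, limma adjusted p = 0.278). Like the type VI chains, Lum separated all 3 lines with hairpin 2 highest, and it differed by -1.04 (SE 0.19) between the hairpin 1 and hairpin 2 lines. Decorin (Dcn) was at 0.96 (SE 0.18) and Thbs2 at 1.10 (SE 0.27) against scrambled. Basement membrane partners were mixed, with 5 of 11 above 0 and a median of -0.05. At an unadjusted p below 0.05, 3 of 11 were higher (5.26% of all genes) and 1 was lower (3.37%). Lama4 was at 0.78 (SE 0.20) and Nid1 at 0.58 (SE 0.24), while Agrn was at -0.21 (SE 0.07). Of the collagen receptors 7 of 9 were above 0 and 2 at an unadjusted p below 0.05, with Ddr2, a tyrosine kinase receptor for fibrillar collagen, at 0.65 (SE 0.28), Mrc2 at 0.56 (SE 0.20) and Itga11 at 0.48 (SE 0.15).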

How the data were processed

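Per the labels' protocols, RNA of V6.5 stem cells was hybridised to 6 arrays. The authors deposited log2 values, and the submitters' processing notes name RMA and Affymetrix Power Tools (versions not given in the sources used here). RMA equalises array distributions, so shifts shared by most genes are removed. Genes were named from probe sets with 1 symbol (21789 of 35556), the brightest per gene, without a filter on level. Limma 3.58.1 in R 4.3.3 was fitted over all 19938 genes: 4 group means for the dox comparisons of the hairpin lines, 2 means for dox over all lines, 3 line means for the lines. Tests were two-sided with Benjamini-Hochberg adjustment at 0.05, and code was tested on simulated data. Arrays with and without dox of 1 line come from the same line, and their deviations from group means correlated at 0.176 to 0.377, so the line pairs them. Separate cultures are not stated, so the p-values speak only to the variation among these arrays, which may be technical. In the main fits between lines, that variation is taken from the arrays with and without dox of each line. It does not measure the spread between lines, and the scrambled hairpin had 1 line. Any collagen gene could be named, with every array given for 12 core chains and the 5 highest and lowest of each comparison, up to 4 leading genes of each list, and others chosen after their values were seen. Members and lists were chosen with earlier results of these data known.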

Additional observations from a re-analysis of the deposited data

Results flagged for a closer look

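Pcgf6 was the 1 gene named here whose dox difference was called different between the Pcgf6 hairpin lines and the scrambled line, at -2.33 on the log2 scale (SE 0.17, limma adjusted p = 0.0256). No collagen gene met that condition. Groups here hold 1 or 2 arrays, too few to look for a single outlying array.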

How the results depend on the processing

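No collagen gene was called in any of the 5 comparisons under any alternative run; the smallest limma adjusted p of a collagen gene over the alternatives was 0.214, 0.686, 0.264, 0.062 and 0.132 in the order of the report. Counts over all genes moved more. With dox in the hairpin lines 40 genes were called, 62 with an intensity trend, 7 when the dimmest 50% were left out and 14 to 40 without 1 array. For the difference from scrambled 14 were called, 22 after median centring, 9 and 4 without the dimmest 25% and 50%, 23 with the replicate block and 0 to 4 without 1 hairpin array; it could not be fitted without either scrambled array. Over all lines 0 were called, and 0 to 54 without 1 array (54 without the induced scrambled array). Between both hairpin lines and scrambled 1 was called, 0 without the dimmest 50% or any 1 array, and 24 with dox as a further term. Between hairpin lines 0 were called and 2 after median centring. Under quantile normalization 2 and 1 collagen genes passed 1.5-fold in the hairpin 2 and scrambled lines. No share of all genes stands beside these counts. The replicate block changed no call of a collagen gene. The cause of these shifts was not tested. The number of arrays limits precision, and signal over background is not given by these values.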
